A study of Mus musculus with 70 samples.

Results

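The 5 libraries described here are the Il1b genotype experiment of a mouse skeletal muscle series: 3 from Il1b-deficient mice and 2 from wild-type littermates, of 70 samples in the series. They are every MmSC library labelled with an Il1b genotype. All 5 are polyadenylated RNA from MmSCs, the mesenchymal stromal cells of muscle, taken from hindlimb muscle 1 day (24 h) after injury with cardiotoxin, a snake venom toxin that destroys myofibres. The deficient group carries the genotype label Il1b-KO and the control group the label Il1b-WT, both groups were injured, and neither received any other treatment. Each library was made from 1000 double-sorted cells, and the stated aim was to learn how far Il-1b is needed for inflammatory transcripts to appear in these cells. The nature of the Il1b allele, the strain background, age and sex are not stated in the labels used here, nor is the animal behind each library, so p-values measure only the spread between these samples.

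Il-1b is a secreted cytokine of myeloid cells that is made as an inactive precursor and cleaved by caspase-1 in the inflammasome. It binds the receptor Il1r1, which pairs with Il1rap and recruits Myd88 and Irak kinases, and the signal ends in NF-kB entering the nucleus. In stromal cells this pathway is known for switching on neutrophil-attracting chemokines such as Cxcl1 and Cxcl5, the cytokine Il6, and the brakes Nfkbia and Tnfaip3 that shut NF-kB off again.

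Total counts were 5322499, 4802278 and 5144481 in the deficient libraries and 5222431 and 6812089 in the wild-type libraries. One library stood apart: wild-type replicate 2 deviated from the 5-library mean with an SD of 0.29 log2 units over well-expressed genes, against 0.16 to 0.19 in the other 4, and values without it are given for the counts of genes and for the main genes named below. MmSC markers were high in all 5 libraries, with a summed level of 39760 to 44810 CPM (counts per 1000000 of the library's total) in the deficient and 42500 to 48420 CPM in the wild-type libraries, and all 15 were detected. None of the 10 neutrophil markers passed the low-count filter, and their summed level was 0.208 to 1.36 CPM in the deficient and 1.03 to 1.34 CPM in the wild-type libraries, with S100a9, Retnlg and Ngp at 0 in every library. The 12 macrophage and monocyte markers summed to 14.2 to 17.3 CPM in the deficient and 16.3 to 22.8 CPM in the wild-type libraries, against a mean of 26560 CPM in sorted CD45+ cells of day 1 injured muscle. In exact two-sided permutation tests of the 8 summed marker lists the p-values were 0.4 to 1, where 3 against 2 libraries cannot go below 0.2.

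The comparison asks whether MmSCs of Il1b-deficient mice mount a weaker inflammatory program after injury. No neutrophil or CC chemokine fell in the Il1b-deficient libraries, nor did Il6 or Lif. Of 12102 genes tested, 135 rose (1.12% of those tested) and 11 fell (0.0909%) in the deficient group, 146 in all or 1.21%, in edgeR's quasi-likelihood test with Benjamini-Hochberg adjusted p under 0.05. The 135 genes that rose included Il6, Cxcl5, Lif, Nfkbiz and Tnfaip3, while Cxcl1, Cxcl2, Cxcl3, Ccl2 and Ccl7 did not pass the test in either direction. Over all genes tested the median log2 change was -0.002. The groups did not overlap for any of the 146 genes, beside 28.3% of all genes tested. The count rested on the libraries: it was 15, 7 and 13 without deficient replicate 1, 2 or 3, 670 without wild-type replicate 1, and 154 without wild-type replicate 2, which included 100 of the 146.

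Among the Il-1 family ligands, Il1b itself was almost absent from MmSCs of either genotype. Its counts were 0, 0 and 1 in the deficient libraries and 2 and 5 in the wild-type libraries. Il1b thus did not pass the low-count filter, and its level in these cells is too low to check the genotype labels, whereas CD45+ cells of day 1 injured C57BL/6J muscle had a mean of 4097 CPM. Il1a, which signals through the same receptor, had no count in any of the 5 libraries, which allows up to 0.625 CPM in the shallowest of them. The receptor antagonist Il1rn had 4, 0 and 2 counts in the deficient and 0 and 4 in the wild-type libraries. Il33, a nuclear alarmin of stromal cells and the most abundant member of the family here, reached 2661, 2612 and 2451 CPM in the deficient and 1963 and 2140 CPM in the wild-type libraries. The Il33 ranges did not overlap, yet its log2 difference of 0.33 (SE 0.08) had an adjusted p of 0.105 in edgeR's quasi-likelihood test, and 0.0453 without wild-type replicate 2. Il18, another inflammasome substrate, had a log2 difference of -0.54 (adjusted p = 0.477).

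No receptor gene of the family passed the test. Il1r1, the signalling receptor, measured 514, 468 and 464 CPM in the deficient and 527 and 450 CPM in the wild-type libraries, so the groups overlapped. Its log2 difference was -0.01 with a 95% interval of -0.22 to 0.20. The 5 receptor genes tested had log2 differences from -0.17 for Il1rl2, the IL-36 receptor, to 0.18 for the co-receptor Il1rap and for Il1rl1, the Il33 receptor.

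Of the 20 tested genes of the signal relay 1 rose (5.0%, beside 1.21% of all genes, with a median log2 difference of 0.08). Peli1, a ubiquitin ligase of the Irak complex, had 39.6, 48.7 and 52.1 CPM in the deficient libraries and 22.2 and 19.8 CPM in the wild-type libraries. The deficient libraries were all higher, by 2.24-fold (log2 difference 1.17, SE 0.16, adjusted p = 0.0107, edgeR). Without deficient replicate 2 or 3 Peli1 no longer passed (highest adjusted p 0.0995), and without wild-type replicate 2 it did (log2 difference 1.11). The adaptor Myd88 had a log2 difference of 0.02, and the kinases Irak1, Irak2, Irak3 and Irak4 had 0.31, 0.10, -0.17 and 0.07. Values of Traf6 and Map3k8, which pass the signal to the NF-kB and MAP kinase branches, were 0.20 and -0.07.

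Within the NF-kB system the clearest of the tested differences was in an inhibitor, Tnfaip3. Of 18 tested NF-kB subunits and feedback genes, 2 rose (11.1%, beside 1.21% of all genes) and none fell. A log2 difference above 0 was found for 17 of the 18, beside 5990 of all 12102, and the median was 0.27. Tnfaip3, which encodes the ubiquitin-editing inhibitor A20, reached 236, 286 and 283 CPM in the deficient libraries against 122 and 96.9 CPM in the wild-type libraries. The groups lay far apart, and the deficient level was 2.47-fold higher (log2 difference 1.31, SE 0.12, adjusted p = 0.00315, edgeR). Tnfaip3 passed the test whichever of the 5 libraries was left out, with log2 differences of 1.17 to 1.45. Nfkbiz, a nuclear co-factor needed for Il6 transcription, was at 433, 439 and 453 CPM in the deficient and 331 and 317 CPM in the wild-type libraries, a log2 difference of 0.45 (SE 0.08, adjusted p = 0.0327). Nfkbiz lost its call when any 1 deficient library or wild-type replicate 2 was left out, with adjusted p up to 0.158. Nfkbia, the classical inhibitor IkBa, had 1010, 1031 and 1010 CPM against 845 and 883 CPM, a non-overlapping log2 difference of 0.24 with an adjusted p of 0.22. The subunit Rela and the RNase Zc3h12a had log2 differences of 0.50 and 0.47 and did not pass (adjusted p = 0.116 and 0.171).

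Il6 and Tnfaip3 carry an NF-kB-type motif close to their start, and their promoter windows are shown because both genes rose. The windows hold the 250 bases before each RefSeq start on GRCm38.p6, Il6 at chr5:30012864-30013113 on the plus strand and Tnfaip3 at chr10:19015411-19015660 on the minus strand, written 5′ to 3′ on the gene's strand. Capitals mark matches to GGGNNTTTCC searched on both strands.
Il6: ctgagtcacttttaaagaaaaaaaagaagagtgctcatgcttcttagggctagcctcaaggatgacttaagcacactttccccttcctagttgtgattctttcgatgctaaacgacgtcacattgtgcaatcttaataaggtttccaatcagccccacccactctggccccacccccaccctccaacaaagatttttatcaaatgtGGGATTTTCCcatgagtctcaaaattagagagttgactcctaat
Tnfaip3: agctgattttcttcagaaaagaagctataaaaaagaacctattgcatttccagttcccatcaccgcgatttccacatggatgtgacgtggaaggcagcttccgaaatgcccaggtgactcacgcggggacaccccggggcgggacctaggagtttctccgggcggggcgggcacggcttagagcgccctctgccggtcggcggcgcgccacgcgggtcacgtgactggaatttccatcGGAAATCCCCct
The Il6 match begins 44 bases before the start in the forward orientation, and the Tnfaip3 match begins 12 bases before its start in the reverse orientation. The second RefSeq start of Tnfaip3 has no match in its window. Of the 32851 promoter windows of this length in the RefSeq table, 464 hold the motif (1.41%). Cxcl1, Cxcl2, Cxcl3 and Nfkbia, which did not pass the test, hold it too, and the windows of Lif, Socs1, Pim1 and Peli1, which rose, do not. Cxcl5, Nfkbiz and Ccl2 were not matched in that table.

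Neutrophil chemokines, the known output of stromal Il-1 signalling, were abundant with and without Il1b. Of 6 tested, 1 rose and none fell (16.7%, beside 1.21% of all genes, with a median log2 difference of 0.11). Cxcl5, which draws neutrophils through Cxcr2, measured 5670, 6392 and 6000 CPM in the deficient libraries and 4763 and 4319 CPM in the wild-type libraries. All deficient libraries were higher, by 1.33-fold (log2 difference 0.41, SE 0.07, 95% interval 0.25 to 0.58, adjusted p = 0.0327, edgeR). The Cxcl5 call was lost when any 1 deficient library was left out (adjusted p up to 0.219) and without wild-type replicate 2 (log2 difference 0.37, adjusted p = 0.0764), and the direction held in each. Cxcl1 measured 7647, 7628 and 8084 CPM against 5735 and 6559 CPM, again with no overlap. Its log2 difference was 0.35 with a 95% interval of 0.15 to 0.54 and an adjusted p of 0.117, and of the 5 fits that left out 1 library it passed only in the one without wild-type replicate 2 (log2 difference 0.48, adjusted p = 0.0156). Cxcl1 also passed with no low-count filter (log2 difference 0.34, adjusted p = 1.90e-05). Cxcl2 was at 575, 621 and 720 CPM against 541 and 570 CPM (95% interval of the log2 difference -0.03 to 0.45), and Cxcl3 at 360, 420 and 466 CPM against 434 and 401 CPM (-0.25 to 0.25). For these 4 chemokines a decrease in the deficient group larger than 0.25 on the log2 scale lies outside the 95% interval.

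The monocyte chemokines were likewise abundant in both groups. Ccl2 had 4394, 5110 and 4514 CPM in the deficient and 3934 and 3960 CPM in the wild-type libraries, with a log2 difference of 0.25 (adjusted p = 0.211). Ccl7 had 1777, 2041 and 1953 CPM against 1866 and 1808 CPM, overlapping, with a log2 difference of 0.07. None of the 5 tested CC chemokines passed.

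**Figure D1:**
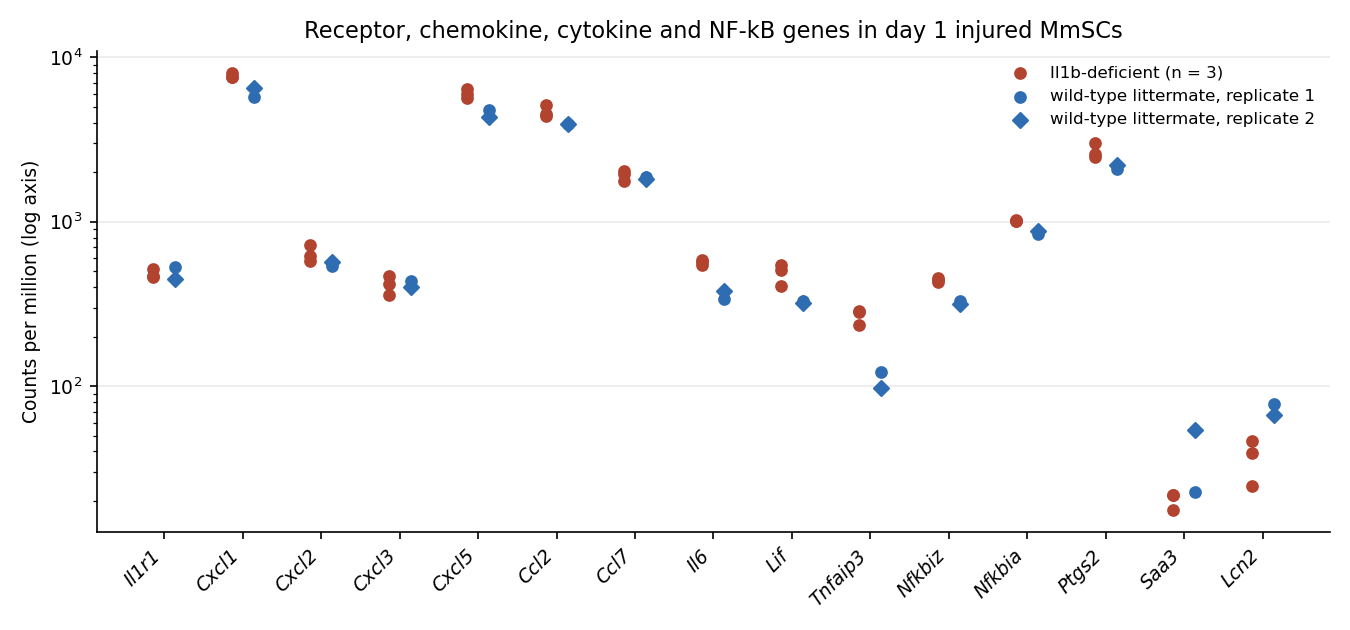
CPM (log axis) of 15 receptor, chemokine, cytokine, NF-kB and acute-phase genes in each library, red for the 3 Il1b-deficient and blue for the 2 wild-type libraries, with a diamond for wild-type replicate 2. Tnfaip3 and Il6 are separated between genotypes, whereas Il1r1, Cxcl3 and Ccl7 overlap.

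Among 17 tested cytokines and growth factors of stroma, 3 rose and 1 fell (23.5%, beside 1.21% of all genes, with a median log2 difference of 0.17). Il6, which drives the acute-phase response and signals through gp130, reached 548, 585 and 569 CPM in the deficient libraries against 341 and 381 CPM in the wild-type libraries. Every deficient library was higher, by 1.58-fold (log2 difference 0.66, SE 0.09, adjusted p = 0.0117, edgeR). Il6 lost the call when any 1 deficient library was left out (adjusted p up to 0.109) and kept it without wild-type replicate 2 (log2 difference 0.77, adjusted p = 0.00114). Lif, a second gp130 ligand, was at 547, 511 and 408 CPM against 331 and 319 CPM, 1.51-fold higher (adjusted p = 0.0459), with adjusted p up to 0.228 when 1 deficient library was left out. Fst, the activin and myostatin antagonist follistatin, rose by a log2 difference of 0.49 (adjusted p = 0.0402), and by 0.44 with an adjusted p of 0.108 without wild-type replicate 2. Hbegf, an EGF receptor ligand, fell: it had 38.5, 41.7 and 40.6 CPM in the deficient and 59.4 and 59.6 CPM in the wild-type libraries, a log2 difference of -0.56 (adjusted p = 0.0487, and 0.139 without wild-type replicate 2). When any 1 deficient library was left out neither Fst nor Hbegf passed (adjusted p up to 0.211 and 0.212). Il11, Csf1 and Csf3 did not pass, with log2 differences of 0.28, 0.17 and 0.89.

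Genes downstream of gp130 and STAT3 included 2 that rose of 21 tested (9.52%, beside 1.21% of all genes, with a median log2 difference of 0.06). Socs1, a brake on JAK kinases, had 28.0, 33.7 and 35.6 CPM in the deficient and 15.3 and 10.4 CPM in the wild-type libraries (log2 difference 1.36, SE 0.20, adjusted p = 0.0135). Pim1, a survival kinase, had 171, 175 and 179 CPM against 107 and 60.5 CPM (log2 difference 1.09, adjusted p = 0.0239). Both were lowest in wild-type replicate 2, without which the log2 differences were 1.11 for Socs1 and 0.75 for Pim1 and both passed. Neither passed when any 1 deficient library was left out (adjusted p up to 0.124 and 0.158). Socs3 and the receptor Osmr did not pass, with log2 differences of 0.17 and -0.08. The transcription factor Cebpb had a log2 difference of 2.62 at low level (5.64, 13.1 and 4.67 CPM against 1.15 and 1.32 CPM) and missed the threshold (adjusted p = 0.0578). Cebpb passed in DESeq2 (adjusted p = 0.00302), and in edgeR with the replicate number as a block (0.028) or no low-count filter (2.26e-07). It did not pass in limma-voom (adjusted p = 0.14). Nor did it in edgeR without any 1 deficient library (0.0946 to 0.175) or with the spread of all day 0 and day 1 MmSCs (0.276).

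None of the 12 tested acute-phase genes passed, and 4 of them had a log2 difference above 0 (median -0.23). Lcn2, the iron-binding lipocalin, measured 46.0, 24.8 and 39.1 CPM in the deficient and 77.6 and 66.2 CPM in the wild-type libraries, without overlap. Its log2 difference of -0.95 (SE 0.21) had an adjusted p of 0.0717 in edgeR. Lcn2 passed in DESeq2 (adjusted p = 0.00372) and limma-voom (0.0462). In edgeR it passed with the replicate number as a block (0.0421) and with no low-count filter (6.57e-09). It did not pass when any 1 deficient library was left out (adjusted p 0.135 to 0.204, edgeR). Nor did it with RLE scaling (0.0703), library totals alone (0.0639) or the spread of all day 0 and day 1 MmSCs (0.382). Without wild-type replicate 1 or 2 its log2 difference was -0.86 or -1.04. Saa3, a serum amyloid made by stroma, had 17.7, 21.9 and 21.6 CPM against 22.8 and 54.0 CPM. The log2 difference of -0.94 for Saa3 rested on wild-type replicate 2, without which it was -0.13, while without wild-type replicate 1 it was -1.43 (adjusted p = 4.35e-05). Ptx3, Tnfaip6 and Sod2 had log2 differences of 0.21, -0.24 and 0.31.

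Other effector classes held few calls. None of 9 tested prostaglandin and nitric oxide genes passed, Ptgs2 (cyclooxygenase-2) being at 3035, 2571 and 2494 CPM in the deficient and 2105 and 2221 CPM in the wild-type libraries (log2 difference 0.33, adjusted p = 0.203). None of 9 adhesion genes passed, and 1 of them had a log2 difference above 0 (median -0.13, lowest -0.95). Icam1 was the highest of them at 0.04, and Vcam1 had -0.04. None of 22 matrix-degrading enzymes and inhibitors passed, Mmp3 having a log2 difference of 0.16. Of 32 collagen and matrix genes 2 rose (6.25%, beside 1.21% of all genes). They were the provisional matrix protein tenascin-C (Tnc, log2 difference 0.50, adjusted p = 0.0239) and the fibrillar collagen Col5a3 (0.70, adjusted p = 0.0311). Both failed when any 1 deficient library was left out (adjusted p up to 0.158 and 0.174). Without wild-type replicate 2 both passed, Tnc with a log2 difference of 0.47 and Col5a3 with 0.50. None of 31 interferon response genes passed (median log2 difference -0.17, with 11 above 0), nor of 12 complement genes (median -0.18, with 1 above 0). All 23 mitotic genes had a log2 difference above 0 (median 0.39), beside 5990 of all 12102, and none passed the test, Top2a, Mki67 and Bub1 having 0.42, 0.47 and 0.54.

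The sensitivity of MmSCs to Il-1b was defined in a separate experiment of the series, in which 2 h after intraperitoneal Il-1b 652 of 15965 genes tested in uninjured C57BL/6J MmSCs were higher than after PBS by a log2 change of at least 2 (4.08%). Of the 479 of them tested here, 9 rose and 1 fell in the deficient group (2.09%, beside 1.21% of all genes), and the median log2 difference was -0.04. A log2 difference above 0 was found for 215 of the 479, and for 5990 of all 12102. The 9 that rose were Tnfaip3, Il6, Cxcl5, Nfkbiz and Pim1, described above, and Gch1, Rrs1, Gng4 and Rnf125, and the 1 that fell was Hbegf. Gch1, the first enzyme of tetrahydrobiopterin synthesis, had 13.5 to 14.8 CPM in the deficient and 7.09 and 5.58 CPM in the wild-type libraries (log2 difference 1.18, adjusted p = 0.0398, and 0.139 without wild-type replicate 2). Rrs1, a ribosome assembly factor, had 123, 132 and 129 CPM against 57.3 and 24.8 CPM (log2 difference 1.68, adjusted p = 0.0152, and 1.20 without wild-type replicate 2). The values of Gch1, Rrs1, Gng4 and Rnf125 were singled out after they were seen, and none passed when any 1 deficient library was left out. With the list set at a log2 change of at least 3, 5 of 187 tested rose and none fell (2.67%, beside 1.21% of all genes). The count of 10 was 1 whichever deficient library was left out, 37 without wild-type replicate 1 and 13 without wild-type replicate 2.

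Genes induced by the injury itself gave a like count. In C57BL/6J MmSCs 657 of 16374 genes tested were higher at day 1 than at day 0 by a log2 change of at least 2 (4.01%). Of the 586 tested here, 16 rose and 1 fell (2.90%, beside 1.21% of all genes), with a median log2 difference of 0.09. Il6, Cxcl5 and Tnc were among the 16 that rose, and Hbegf was the 1 that fell. Without deficient replicate 1, 2 or 3 the 17 became 1, 0 and 2, and without wild-type replicate 1 or 2 they became 49 and 19.

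The inflammatory genes were also set beside the C57BL/6J MmSCs of day 1 (3 libraries of another experiment of the series), since both experiments sampled the same injury and day. Tnfaip3 averaged 4.64 CPM there (SD 3.53) against 96.9 to 286 CPM in the 5 libraries described here. Lif averaged 4.24 CPM (SD 1.72) against 319 to 547 CPM, and Il6 averaged 25.2 CPM (SD 6.56) against 341 to 585 CPM. Wild-type littermates and Il1b-deficient mice thus both stood well above the C57BL/6J libraries for these genes, by more than their difference from each other. Ccl2 and Cxcl5 were closer, with C57BL/6J means of 1918 and 1536 CPM. Genotype source, experiment and handling cannot be told apart in that contrast.

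More than 10 Mb from Il1b, the largest increases were in genes of mixed function. Alkal2, a ligand of the receptor kinases Alk and Ltk, rose the most of the genes taken for naming: it had 11.5, 13.7 and 17.3 CPM in the deficient libraries and 2.11 and 1.17 CPM in the wild-type libraries (log2 difference 3.14, SE 0.35, adjusted p = 0.00643). Wt1, a transcription factor of mesothelial and stromal progenitor cells, had 14.5, 13.7 and 15.8 CPM against 3.45 and 3.67 CPM (log2 difference 2.04, adjusted p = 0.00827). It was nearly absent from C57BL/6J MmSCs at day 1, at a mean of 0.0558 CPM. Htra1, a secreted serine protease, had 296, 318 and 293 CPM against 109 and 42.4 CPM (log2 difference 2.03, adjusted p = 0.0121). The proteasome subunit Psmd3 and the translation initiation factor subunit Eif3f rose by log2 differences of 1.87 and 1.81, and the immediate-early gene Ier2 by 1.86. Inafm2, Ccdc102a, Yipf4, Lzts2, Med30 and Arhgap11a rose by 1.82 to 2.57. Inafm2 lies on chromosome 2 at -10.63 Mb from the Il1b start, minus meaning proximal, and so just outside the segment of 10 Mb that was examined separately. Arhgap11a and Wt1 also lie on chromosome 2, further proximal of Il1b.

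Wild-type replicate 2 moved with these increases. Of the 135 genes that rose, 122 were lower in wild-type replicate 2 than in wild-type replicate 1, beside 59.0% of all genes tested. Their median level was 5.98, 6.09 and 6.06 log2(CPM + 1) in the deficient libraries, 5.22 in wild-type replicate 1 and 4.59 in wild-type replicate 2, beside 6.07 to 6.19 in C57BL/6J MmSCs at day 1. The 135 genes were chosen in the same 5 libraries as higher in the deficient group, so a higher deficient median was set in advance. The 59.0% of all genes does not allow for that choice, which can also favour genes low in wild-type replicate 2. For Htra1, Ier2 and Lzts2 the log2 difference without that library was 1.51, 1.27 and 1.22, and all 3 still passed. Alkal2, Psmd3 and Eif3f passed too, with 2.77, 1.51 and 1.40. Without deficient replicate 2, Alkal2 and Psmd3 missed the threshold (adjusted p = 0.0648 for each), and among the 12 only Inafm2 passed in each of the 5 fits that left out 1 library. The other 9 passed when either wild-type library was left out and failed when any 1 deficient library was. Without wild-type replicate 1 the log2 differences of Ccdc102a, Htra1, Yipf4, Ier2 and Lzts2 were 3.03, 2.81, 2.57, 2.76 and 2.71. The part of that library in these increases was not tested beyond those values.

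Exoc5 and Plbd2 were singled out after their values were seen because they too passed in each of those 5 fits, as did Tnfaip3, Inafm2, Itpa-ps1 and Pcna-ps2. Exoc5, an exocyst subunit, had 85.5, 101 and 81.6 CPM in the deficient and 37.9 and 30.1 CPM in the wild-type libraries (log2 difference 1.41). Plbd2, a lysosomal protein, had 94.3, 119 and 94.3 CPM against 38.5 and 42.7 CPM (log2 difference 1.33).

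**Figure D2:**
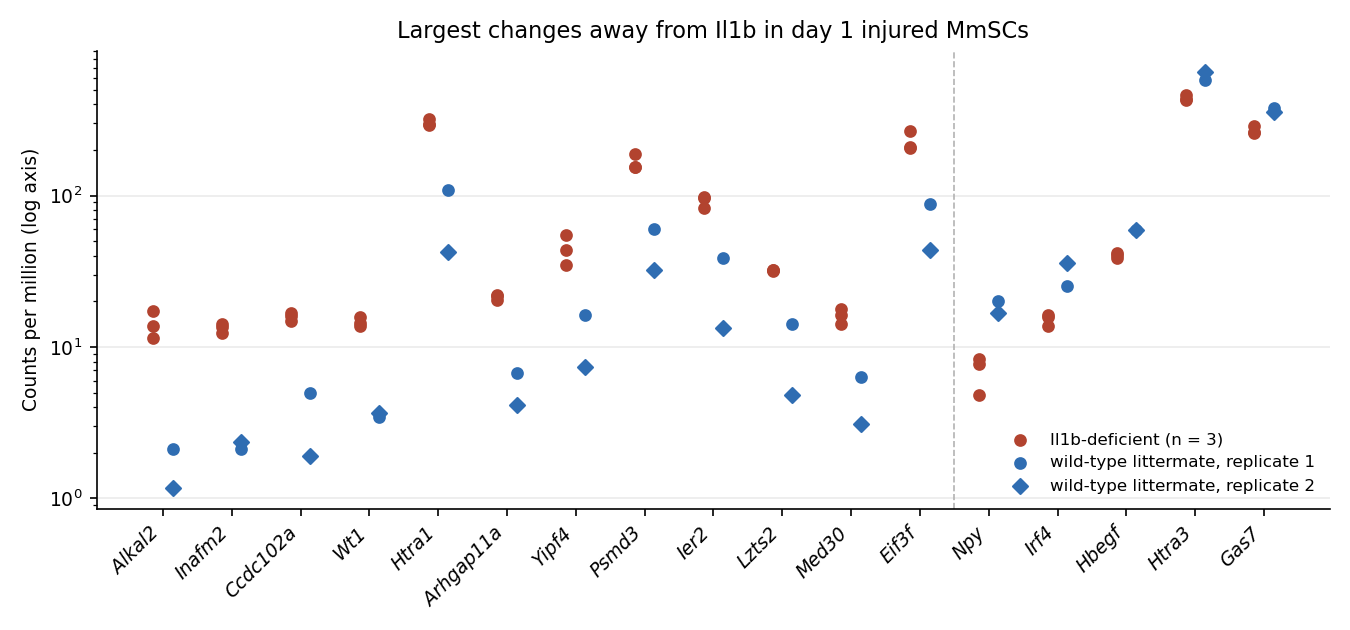
CPM (log axis) of the 12 genes with the largest increases and, right of the dashed line, the 5 with the largest decreases among well-expressed genes outside the Il1b segment, in each library. Absence of overlap between the groups was a condition for taking these 17 genes. The diamond of wild-type replicate 2 is the lower wild-type point for 10 of the 12 that rose.

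The 11 genes that fell included 5 taken for naming away from Il1b. Npy, the neuropeptide Y gene, had 7.70, 4.79 and 8.36 CPM in the deficient and 20.1 and 16.9 CPM in the wild-type libraries (log2 difference -1.39, SE 0.25, adjusted p = 0.0341). Irf4, a transcription factor of immune cells and adipocytes, had 15.8, 16.2 and 13.8 CPM against 25.3 and 35.7 CPM (95% interval of the log2 difference -1.43 to -0.57, adjusted p = 0.0403). Hbegf is described above, and Htra3 and Gas7 fell by log2 differences of 0.49 and 0.44. Irf4 and Htra3 did not pass without wild-type replicate 2 (adjusted p = 0.205 and 0.134), and none of the 5 passed when any 1 deficient library was left out. The others were Itpa, Prnp and Sord on chromosome 2, Pcna-ps2, and A2m and Sult1e1, the last pair named after their values were seen. A2m had 0, 0 and 2 counts in the deficient and 10 and 37 in the wild-type libraries.

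Genes near Il1b (chr2:129364570-129371139 on GRCm38, minus strand) were examined separately. As background, a targeted locus can bring along flanking DNA of the strain in which it was made. Within 10 Mb (megabases) of the Il1b start 145 genes were tested and 4 passed (2.76%), against 1.61% of 933 genes on chromosome 2 and 1.19% of 11016 on other chromosomes. At an unadjusted p under 0.01 there were 15 of 145 (10.3%) within the segment and 564 of 12102 (4.66%) in all. Within the segment, 7 of 95 genes on the proximal side and 8 of 50 on the distal side had such a p. In the bin 10 to 20 Mb proximal, 8 of 43 genes (18.6%) had such a p, the highest share of any bin. Of those 43, 2 passed the test (4.65%). In the bin 10 to 20 Mb distal, 2 of 31 genes had such a p (6.45%) and none passed. Far from Il1b, 100 to 110 Mb proximal, 9 of 90 genes had such a p and 3 passed (3.33%). The bins therefore did not single out the surroundings of Il1b. Sord, sorbitol dehydrogenase, lay 7.14 Mb proximal of Il1b and had 13.9, 7.71 and 5.64 CPM in the deficient and 25.5 and 28.6 CPM in the wild-type libraries (log2 difference -1.56, adjusted p = 0.0398). Prnp, the prion protein gene, lay 2.54 Mb distal and had 326, 310 and 310 CPM against 417 and 482 CPM (log2 difference -0.50, adjusted p = 0.0402). Plcb1, a phospholipase C, lay 5.41 Mb distal and was the only one of the 4 that rose, at 11.7, 10.8 and 9.53 CPM against 3.06 and 3.82 CPM (log2 difference 1.62, adjusted p = 0.0255). Itpa, inosine triphosphatase, lay 1.30 Mb distal and had 16.5, 16.9 and 13.0 CPM against 34.7 and 31.4 CPM (log2 difference -1.08, adjusted p = 0.0149). All 4 were without overlap, and the count became 1, 0 and 0 without deficient replicate 1, 2 or 3, 11 without wild-type replicate 1, 5 without wild-type replicate 2, 2 with a segment of 5 Mb and 6 with 20. Without wild-type replicate 2 Prnp did not pass (log2 difference -0.37, adjusted p = 0.135).

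**Figure D3:**
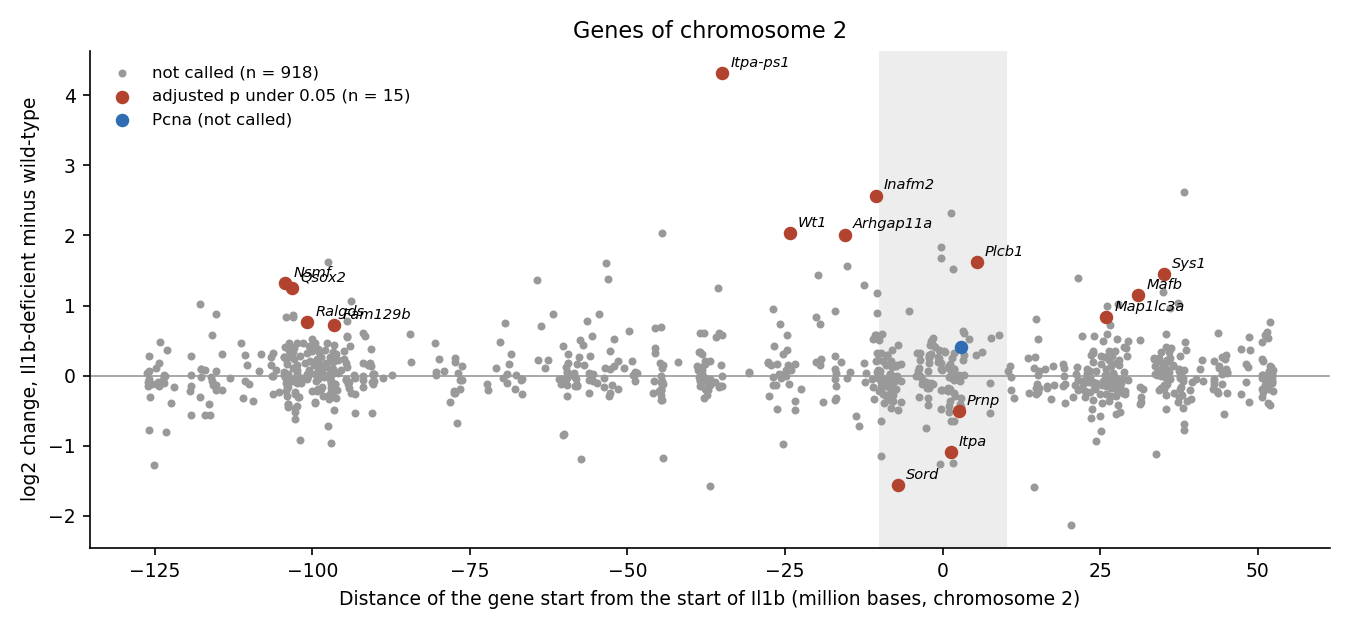
The log2 difference of each of the 933 tested genes of chromosome 2 against the distance of its start from that of Il1b in Mb, the 15 that passed in red with their names and the segment of 10 Mb on either side in grey. Itpa, Prnp and Sord lie below 0 and Plcb1 above it within the segment, and Itpa-ps1 is the highest point of the chromosome.

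The largest differences of the whole comparison, in both directions, were in pseudogenes whose parent genes lie beside Il1b, and they are given here after their values were seen. Itpa-ps1 (chr2:94384502-94385098, minus strand, 34.99 Mb from Il1b) had 63, 68 and 78 counts in the deficient libraries and 6 and 2 in the wild-type libraries (log2 difference 4.31, SE 0.43, adjusted p = 0.00315, edgeR, and 3.58 to 5.42 with 1 library left out). Pcna-ps2 (chr19:9283380-9284160, plus strand) had the opposite pattern, with 3, 2 and 3 counts in the deficient and 180 and 243 in the wild-type libraries (log2 difference -6.00, SE 0.27, adjusted p = 9.88e-06). The parent of the first is Itpa, described above, and the parent of the second is Pcna, the replication clamp, which lies 2.88 Mb distal of Il1b at chr2:132249162-132253314. Pcna itself had 172, 189 and 184 CPM against 135 and 138 CPM (log2 difference 0.42, adjusted p = 0.0654).

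Each pseudogene is nearly identical to its parent, so reads of one can be counted for the other, and a stretch of 90 coding bases of each pair is shown to make this visible. Sequences are from the GENCODE M21 transcripts, 5′ to 3′, and capitals mark the bases that differ within a pair.
Itpa: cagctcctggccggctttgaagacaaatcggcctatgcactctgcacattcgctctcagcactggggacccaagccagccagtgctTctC
Itpa-ps1: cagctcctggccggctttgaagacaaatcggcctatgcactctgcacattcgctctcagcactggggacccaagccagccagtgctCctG
Pcna: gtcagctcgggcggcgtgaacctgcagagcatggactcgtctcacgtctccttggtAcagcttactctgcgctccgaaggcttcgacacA
Pcna-ps2: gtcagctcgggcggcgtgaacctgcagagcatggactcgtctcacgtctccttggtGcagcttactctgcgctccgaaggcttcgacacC
Counted from 1 at the 5′ end of each stretch, with the parent's base first, the differences are T87C and C90G in the Itpa pair and A57G and A90C in the Pcna pair. Over the whole of their length, the 597 bases of Itpa-ps1 matched the Itpa transcript without a gap and with 4 mismatches (99.3% identity), and the 781 bases of Pcna-ps2 matched the Pcna transcript with 6 (99.2%).

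The pseudogene's share of a pair's counts separated the genotypes in both pairs. Itpa-ps1 took 41.7% to 53.8% of the Itpa pair in the deficient libraries, 0.926% and 3.21% in the wild-type libraries, and 0.417% to 11.3% in the other 65 libraries of the series. Pcna-ps2 took 0.219% to 0.327% of the Pcna pair in the deficient libraries, 20.3% and 20.6% in the wild-type libraries, and 0% to 3.18% in the other 65. With the counts of each pseudogene added to its parent, an alternative chosen after seeing the data, the log2 difference was -0.20 for Itpa (SE 0.13, adjusted p = 0.617) and 0.09 for Pcna (SE 0.09, adjusted p = 0.762). The call of Itpa therefore did not hold for the pair, and the values of Itpa, Itpa-ps1, Pcna and Pcna-ps2 taken singly are uncertain. Which copy the reads came from, and which alleles these animals carry there, was not tested.

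**Figure D4:**
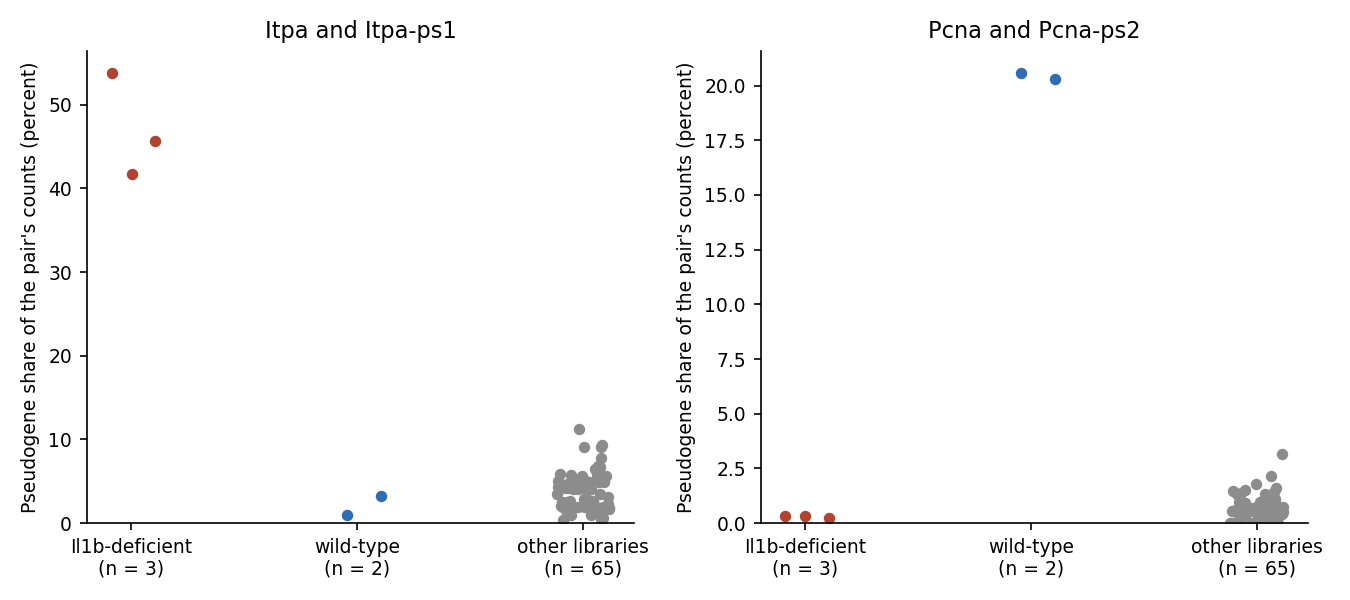
Share of each pair's counts assigned to the pseudogene, in percent, for Itpa with Itpa-ps1 (left) and Pcna with Pcna-ps2 (right), with 1 point per library in the Il1b-deficient group, the wild-type group and the other 65 libraries. Only the deficient libraries are high on the left, and only the wild-type libraries on the right.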

How the data were processed

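Polyadenylated RNA from 1000 double-sorted MmSCs per library was sequenced. The authors deposited 1 table of whole-number read counts per gene for all 70 samples, aligned with STAR 2.7.3a and counted with featureCounts on mm10 (GRCm38), per the submitters' processing notes. For annotation release, strand setting and multi-mapping reads, the choice is not given in the sources used here. Groups came from the genotype labels. The members and gene lists were chosen with earlier results of these data known.

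Counts were tested in R 4.3.3 with edgeR 4.0.16 (genes kept by filterByExpr at its minimum count of 10, scaled by TMM, quasi-likelihood test, Benjamini-Hochberg adjustment over all 12102 genes) on the 5 libraries. The edgeR, DESeq2 and limma-voom fits were also run on simulated counts with known changes, and the other steps were not. CPM are counts per 1000000 of a library's total, which were 4802278 to 6812089, and differences are log2, deficient minus wild-type. All intervals and floors cover counting or between-library error only. Gene positions came from GENCODE M21, which held 52936 of the 55011 symbols. Replicate pairs differed by more than counting noise (chi-square per degree of freedom 3.94 to 8.59). Genes named were the up to 12 highest and 12 lowest fitted changes past an adjusted p of 0.05 with average log2 CPM of at least 3, no overlap and a start outside 10 Mb of Il1b (unnamed clones, pseudogenes, mitochondrial and sex-linked genes left out), Il1b, Il1a, Il1rn and the genes past the threshold inside that segment, and from 32 gene lists the Il-1 genes, the neutrophil chemokines and up to 4 members with the smallest p, with a set of known inflammatory and marker genes. Genes named outside this rule are marked in the text, and 1 gene is not reported here. Il-1b-induced and injury-induced genes came from separate edgeR fits of the injection and compartment experiments. Sums of marker CPM were compared by exact permutation tests. Alternatives were RLE scaling, library totals alone, DESeq2 1.42.0, limma-voom 3.58.1, other count filters, each library left out, the replicate number as a block, the spread of all day 0 and day 1 MmSCs, C57BL/6J controls, other segment widths and list thresholds, and, chosen after seeing the data, pseudogene counts added to the parents. Sequences are from RefSeq promoters of GRCm38.p6 and GENCODE M21 transcripts, aligned with Biopython 1.88.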

Additional observations from a re-analysis of the deposited data

How the results depend on the processing

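The 146 genes became 147 with RLE scaling, 118 with library totals alone, 196 in limma-voom, 126 with a minimum count of 30 and 143 with pseudogene counts added to the parents, within 1.5 times. DESeq2, run on 29116 genes with its own filtering, called 232 (217 higher, 208 outside chromosome 2). Without a low-count filter there were 594 (500 higher, 94 lower, 16 near Il1b, 535 outside chromosome 2, 44 Il-1b-induced and 54 injury-induced). Leaving out 1 library gave 7 to 670 genes in all, 6 to 564 higher, 1 to 106 lower, 0 to 11 near Il1b, 5 to 611 outside chromosome 2, 1 to 37 Il-1b-induced and 0 to 49 injury-induced. With 1 wild-type library left, that library is assumed to vary like the deficient group. With the spread of all day 0 and day 1 MmSCs, 129 genes passed, of which 4 were lower, 4 Il-1b-induced and 6 injury-induced. A segment of 5 Mb held 2. A list threshold of log2 1 gave 23 Il-1b-induced and 34 injury-induced genes, and one of 3 gave 5 and 6.

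Labels give no shared animal, litter or day for a replicate number, so the numbers were not taken as a pairing. Deviations of same-numbered libraries had correlations of 0.003 (replicate 1) and -0.223 (replicate 2). The 2 wild-type libraries mirror each other in these deviations, so the values cannot decide whether a number marks a shared litter or day. The replicate block gave 101 genes, 91 of them among the 146, with 6 lower, 0 near Il1b and 9 injury-induced. Il6 and Cxcl5 then had adjusted p of 0.0551 and 0.343.

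With C57BL/6J day 1 MmSCs of another experiment as controls, 8449 genes differed (4280 higher, 4169 lower, 99 near Il1b, 7809 outside chromosome 2, 338 Il-1b-induced and 370 injury-induced). The sign turned for Inafm2 -0.47, Ccdc102a -1.80, Htra1 -0.22, Yipf4 -0.26, Psmd3 -0.92, Ier2 -0.97, Lzts2 -1.19, Med30 -0.79, Eif3f -0.91, Myd88 -0.31, Irak1 -0.46, Irak4 -0.76 and Plbd2 -0.66, and for Npy 3.21, Irf4 2.97, Hbegf 1.92, Htra3 0.49, Prnp 1.02, Il1r1 2.32, Il1rl2 2.46, Irak3 2.45, Map3k8 1.51, Osmr 0.82, Tnfaip6 4.52 and Vcam1 3.13 (log2 differences). It also turned for Lcn2 0.22, Irak2 -0.18 and Il1r2 0.04, which did not pass. Htra1, Yipf4 and Htra3 did not pass in that contrast either (adjusted p = 0.0682, 0.128 and 0.102, edgeR). The cause was not tested. Of 42 named genes past the threshold with littermate controls, library totals alone lost Hbegf, Lif, Fst and Sult1e1, and limma-voom lost Sult1e1. Of the same 42 the replicate block lost 16 and the spread of all day 0 and day 1 MmSCs lost 19. Lost in both were Il6, Cxcl5, Nfkbiz, Fst, Tnc, Gch1, Irf4, Hbegf, Htra3, Gas7, Prnp and Sult1e1. DESeq2 lost Hbegf and a minimum count of 30 lost Lif, each of 40 that had an adjusted p there. Most were lost without deficient replicate 1, 2 or 3: 31 of 41, 36 of 42 and 34 of 42. Without wild-type replicate 2, 9 of 41 were lost. Depth is a limit: genes under the filter, Il1b among them, were not tested.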
